A study of Sus scrofa with 8 samples.

Results

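The genes described here encode 9 ligands of the WNT family, WNT2, WNT3A, WNT4, WNT5A, WNT5B, WNT7A, WNT10B, WNT11 and WNT16, in pig embryonic fibroblasts (PEFs). They were taken by symbol from the RefSeq annotation of the Sscrofa11.1 assembly, in which all 9 were found among 19487 protein-coding genes on chromosomes 1 to 18 and X. The PEFs came from fetuses of Large White pigs at 35 days of age and were kept in culture for 24 h, and no treatment is named in the labels. Chromatin immunoprecipitation followed by sequencing (ChIP-seq) was done with antibodies to H3K4me3 (ab8580), a histone mark of promoters, to H3K27ac (ab4729), a mark of active promoters and enhancers, and to CTCF, a DNA-binding protein found at loop anchors and domain boundaries. There were 2 replicates for each, or 6 libraries, and the labels do not say whether the replicates came from separate cultures or fetuses. PEFs are a primary culture, and a peak can come from all the cells or from some of them.

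WNT ligands are secreted, lipid-modified glycoproteins that act over short distances. WNT3A and its like signal through Frizzled receptors and LRP co-receptors and stabilise β-catenin, whereas WNT5A, WNT5B and WNT11 are known mainly for β-catenin-independent signalling, which orients cells and guides their movement. In embryonic mesenchyme, the source of these fibroblasts, ligands of both kinds pattern limb, skin and skeleton.

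Each library gave a list of peaks, with 37932 and 43516 peaks for H3K4me3, 74983 and 81164 for H3K27ac and 40289 and 44682 for CTCF in replicates 1 and 2. The strength of a peak is given as fold enrichment over control. The median H3K4me3 fold over all peaks was 9.27 in replicate 1 and 6.16 in replicate 2, and so each member's fold is also given as a percentile, the percent of genes with such a peak at the start that had a lower fold in the same library. Among marker genes, all 12 fibroblast genes carried H3K4me3 and H3K27ac at the start, while none of the 14 epithelial, endothelial, blood, neural and liver genes carried both marks. Of these 14, 8 carried neither mark, 5 H3K4me3 only and 1, the blood gene SPI1, H3K27ac only, with folds of 12.4 and 17.0.

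A gene was said to carry a mark at its start where a peak overlapped the window of 1 kb on either side of the 5′ end of its gene record in both replicates. By this rule H3K4me3 was present at the start of all 9 ligand genes, against 68.9% of protein-coding genes. H3K27ac was present at 3 of the 9, against 60.7% of protein-coding genes. The 3 genes with both marks were WNT2, WNT5A and WNT5B, and 58.9% of protein-coding genes fell in this class. There were 5 genes with H3K4me3 only, WNT3A, WNT4, WNT7A, WNT10B and WNT16, a class that held 8.25% of protein-coding genes. The class of WNT10B depended on the start used. By any transcript start it carried both marks, which gave 4 of the 9 against 62.1% of protein-coding genes. The replicates differed for WNT11, as for 3.87% of protein-coding genes, since H3K27ac was called at its start in replicate 2 alone. None of the 9 lacked both marks, whereas 27.5% of protein-coding genes did. CTCF was present at the start of 2 of the 9, WNT7A and WNT10B, against 17.9% of protein-coding genes. With 9 genes, these counts are descriptions and carry no test.

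The DNA just upstream of the starts differed widely among the members. The 250 bases before the start are shown for 3 of them, on the Sscrofa11.1 assembly and 5′ to 3′ on the strand of the gene, with every CpG dinucleotide in capitals. WNT5A and WNT5B carried both marks, and WNT7A carried H3K4me3 only.
WNT5A, chr13:37367216-37367465, minus strand: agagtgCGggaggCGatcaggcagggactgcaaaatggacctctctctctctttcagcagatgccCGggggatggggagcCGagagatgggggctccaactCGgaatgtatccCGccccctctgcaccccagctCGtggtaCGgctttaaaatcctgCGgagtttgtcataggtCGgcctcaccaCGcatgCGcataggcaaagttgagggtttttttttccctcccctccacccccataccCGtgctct
WNT5B, chr5:68626908-68627157, plus strand: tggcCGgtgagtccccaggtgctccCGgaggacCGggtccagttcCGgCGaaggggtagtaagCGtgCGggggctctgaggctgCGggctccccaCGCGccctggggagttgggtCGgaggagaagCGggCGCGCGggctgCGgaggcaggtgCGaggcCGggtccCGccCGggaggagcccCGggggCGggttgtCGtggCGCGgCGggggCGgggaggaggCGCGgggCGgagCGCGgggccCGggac
WNT7A, chr13:70538552-70538801, plus strand: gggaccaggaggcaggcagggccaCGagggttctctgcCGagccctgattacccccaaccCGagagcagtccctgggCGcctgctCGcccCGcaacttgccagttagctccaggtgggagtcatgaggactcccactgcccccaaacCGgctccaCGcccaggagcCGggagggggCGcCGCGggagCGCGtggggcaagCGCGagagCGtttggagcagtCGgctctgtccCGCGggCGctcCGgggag
In the window from 250 bases before to 50 bases after the start, WNT5A had 13 CpGs and a GC content of 55.3%, both the lowest of the 8 genes described here, WNT3A not included. WNT4 had 45 CpGs and a GC content of 84.7%, both the highest of the 8. The median of protein-coding genes was 16 CpGs, so that WNT5A alone of the 8 was below it. Their order by CpGs was WNT4 (45), WNT5B (44), WNT11 (34), WNT7A and WNT10B (27 each), WNT16 (20), WNT2 (17) and WNT5A (13). The ligand with the strongest H3K27ac, WNT5A, thus had the fewest CpGs of the 8 at the outermost start. Its H3K27ac summit in replicate 1 lay 4913 bp into the gene, and its inner starts held 23 and 25 CpGs. Over all protein-coding genes the median number of CpGs was 23 for both marks, 21 for H3K4me3 only and 4 for neither mark.

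WNT5A, a ligand needed for the outgrowth of limbs and face, had the most extended marks of the 9. The gene lies on chromosome 13 from 37344684 to 37367215, on the minus strand. At its start the H3K4me3 folds of replicates 1 and 2 were 54.4 and 31.4, at percentiles 55.1 and 74.6, with a mean of 42.9 ± 16.3 (SD, n = 2). The height was thus close to or somewhat above that of other marked genes, and it was the width that stood out. The H3K4me3 peak spanned 16271 bp in replicate 1 and 15937 bp in replicate 2, wider than at 99.8% and 99.7% of genes with H3K4me3 at the start. It ran from 1250 bp upstream to 15020 bp downstream of the start in replicate 1 and from 818 bp upstream to 15118 bp downstream in replicate 2, covering 66.7% and 67.1% of the gene record. H3K4me3 of at least 10 kb, summed over the peaks at the start, was found at 116 genes in replicate 1 and 194 in replicate 2. These were 0.855% and 1.43% of genes with a peak, and WNT5A was the only one of the 9 ligands among them.

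H3K27ac at WNT5A followed the same outline. Its fold was 25.4 and 31.4 in replicates 1 and 2, at percentiles 81.0 and 84.6, and its peak spanned 15496 bp and 13152 bp. These were the highest H3K27ac folds of the 9 genes in either replicate. RefSeq gives 3 transcript starts for WNT5A, at 0, 6213 and 6948 bp from the start of the gene record, and all 3 lay under the same peaks of both marks. The window around the 2 inner starts held 23 and 25 CpGs, more than the 13 at the outermost start.

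**Figure D1:**
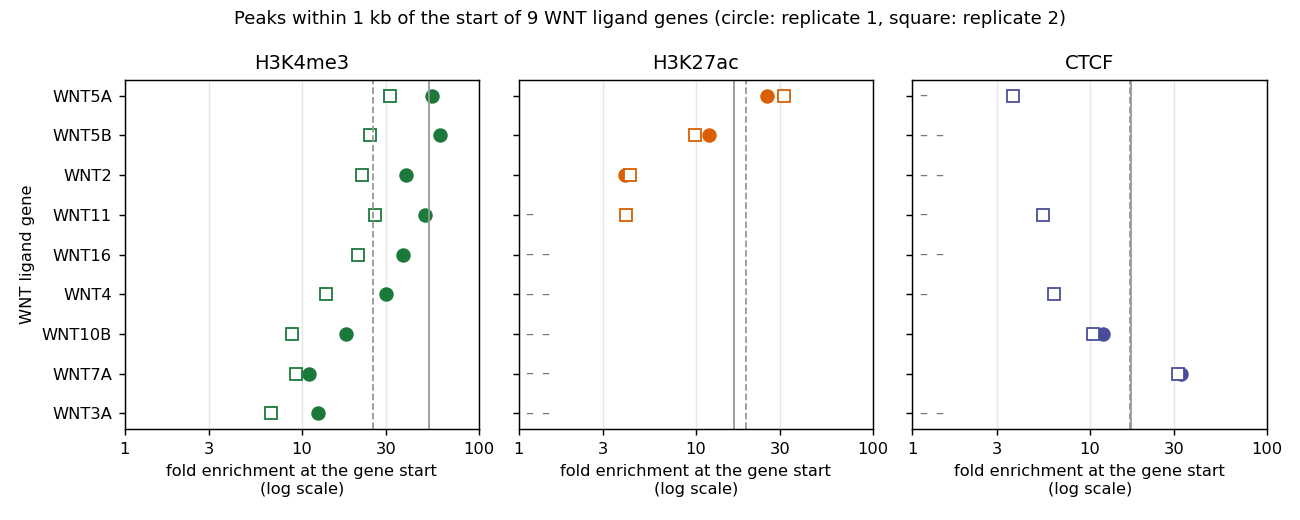
Fold enrichment (log scale) of the peak within 1 kb of the start of each WNT ligand gene, with replicate 1 as filled circles and replicate 2 as open squares, for H3K4me3, H3K27ac and CTCF. A dash at the left stands for no peak in a library, and the solid and dashed lines are the medians over all protein-coding genes with a peak in replicates 1 and 2. H3K4me3 was present at all 9 genes, and H3K27ac was above its median only at WNT5A.

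WNT5B, the closest relative of WNT5A, is known from cartilage and fat development. It lies on chromosome 5 from 68627158 to 68731938 on the plus strand, the longest record of the 9 at 104.8 kb. H3K4me3 at its start had folds of 59.8 and 24.3, at percentiles 66.9 and 46.5, with widths of 3534 bp and 3035 bp. H3K27ac had folds of 11.9 and 9.94, or 10.9 ± 1.35 (SD, n = 2), at percentiles 30.4 and 19.6. The mean H3K4me3 folds of WNT5B and WNT5A were 42.1 ± 25.1 and 42.9 ± 16.3. WNT5B was above WNT5A in replicate 1 and below it in replicate 2, while H3K27ac was lower at WNT5B in both replicates.

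WNT2, a β-catenin-type ligand of lung and placental development, carried H3K27ac only weakly. It lies on chromosome 18 from 28945825 to 28993969, on the plus strand. H3K4me3 at its start had folds of 38.5 and 21.8, at percentiles 27.1 and 36.4. The H3K27ac folds were 3.98 and 4.25, at percentiles 3.95 and 4.83, and the peaks were 625 bp and 1166 bp wide, with summits 294 bp and 324 bp upstream of the start. The −log10 q-values of 6.10 and 6.90 were still above the strictest limit tried, which was 5. WNT2 was thus placed with WNT5A and WNT5B by the rule, with H3K27ac folds closer to that of WNT11 in its single library than to those of the other two.

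WNT11, which acts in convergent cell movement and in heart and kidney development, had strong H3K4me3. The gene lies on chromosome 9 from 10413182 to 10435158 on the minus strand. H3K4me3 folds were 49.4 and 25.9, at percentiles 45.0 and 52.6, and the peak ran over 5680 bp and 5947 bp, wider than at 92.8% and 91.3% of marked genes. In replicate 1 no H3K27ac peak lay at the start and the nearest was 18351 bp downstream. In replicate 2 a peak of 499 bp with a fold of 4.06 and a −log10 q-value of 5.80 lay there, at percentile 4.27. The mean fold of WNT11, 37.7 ± 16.7, and those of WNT5A and WNT5B lay within 1 SD of each other. This SD includes the lower scale of replicate 2, where the median fold at gene starts was 25.2 against 52.0 in replicate 1. It therefore does not show whether the genes differ. WNT5A was above WNT11 in both replicates, while WNT5B was the highest of these genes in replicate 1 and the lowest in replicate 2.

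WNT16, a ligand known from bone and joint, lies on chromosome 18 from 25621802 to 25633730 on the minus strand. H3K4me3 at its start had folds of 37.1 and 20.8, at percentiles 25.1 and 33.0, close to those of WNT2 in both replicates, and widths of 2514 bp and 3081 bp. No H3K27ac peak lay at the start in either replicate. The nearest was 59935 bp downstream in replicate 1 and 24807 bp downstream in replicate 2.

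WNT4, a ligand of kidney and reproductive tract development, lies on chromosome 6 from 80110238 to 80138165 on the minus strand. Its H3K4me3 folds were 29.7 and 13.6, at percentiles 17.7 and 14.3. The nearest H3K27ac peaks were 27235 bp and 29282 bp downstream of the start, at or just past the end of the gene. One of the 3 annotated transcript starts, 14803 bp into the record, had no peak of any of the 3 kinds within 1 kb, and both others shared the marked start.

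WNT7A, which patterns the dorsal side of the limb, lies on chromosome 13 from 70538802 to 70602464 on the plus strand. Its H3K4me3 folds were among the lowest, 11.01 and 9.23, at percentiles 5.49 and 7.75. In replicate 1 the peak was 2698 bp wide, whereas in replicate 2 the peak at the start was 1196 bp wide and a separate peak followed downstream. The nearest H3K27ac peaks were 23756 bp and 23571 bp upstream. CTCF was strong here, with folds of 32.7 and 31.6 at percentiles 85.5 and 77.6, and with summits 599 bp and 587 bp upstream of the start. WNT7A was the only member with a higher fold of CTCF than of H3K4me3 at the start, in both replicates. Folds of the 2 antibodies differ in scale. Over genes with a peak at the start, the medians in replicates 1 and 2 were 17.2 and 16.8 for CTCF and 52.0 and 25.2 for H3K4me3.

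WNT3A, the ligand most used to activate β-catenin signalling in culture, had the lowest mean H3K4me3 fold of the 9. The gene lies on chromosome 2 from 51153978 to 51203678, on the plus strand. H3K4me3 folds at the start were 12.3 and 6.66, at percentiles 6.16 and 4.87, and widths were 1984 bp and 2682 bp. A second H3K4me3 region lay in an intron 41.1 kb downstream of the start, with folds of 12.8 and 9.86, no lower than at the start itself in either replicate. No annotated transcript of WNT3A starts there, and neither H3K27ac nor CTCF was called in the gene body. The nearest H3K27ac peaks to the start were 24707 bp and 24797 bp upstream, at the promoter of the neighbouring ligand gene WNT9A.

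WNT10B, a ligand that favours bone over fat in mesenchymal cells, depended on which start was used. It lies on chromosome 5 from 14997377 to 15013928 on the minus strand, next to WNT1, and the longest WNT10B model begins inside the WNT1 gene, 3.3 kb from the WNT1 start. H3K4me3 at this outer start had folds of 17.7 and 8.74, at percentiles 8.97 and 7.15, and the same peak covered the start of WNT1, so that the lists cannot assign it to one of them. A start 315 bp further in lay under the same peak. The inner starts, 9562, 9810 and 11485 bp into the record, had H3K4me3 folds of 28.0 and 9.61. H3K27ac was present at the first 2 of these with folds of 5.06 and 7.17, and at the last with 4.64 and 7.17. This last start is the only one of WNT10B that does not come from a predicted RefSeq model. Counted by any transcript start, WNT10B would join the genes with both marks, as the only change of class among the 9.

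**Figure D2:**
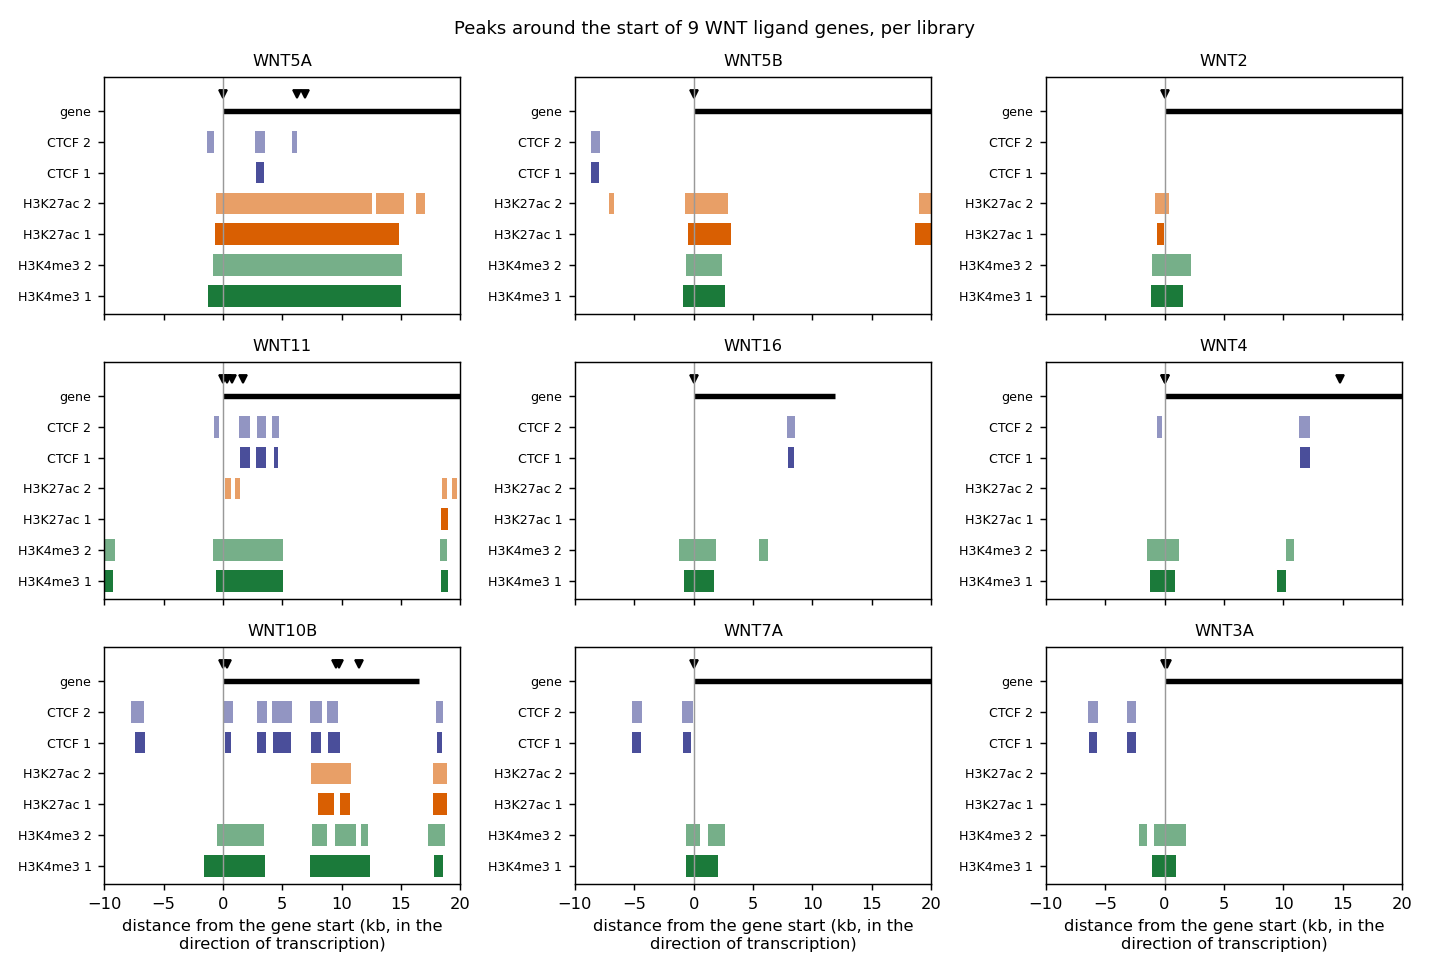
Peaks of each library from 10 kb upstream to 20 kb downstream of the gene start (distance in kb in the direction of transcription), with 1 panel for each WNT ligand gene, a black line for the gene record, triangles for annotated transcript starts and bars for peaks (replicate 1 dark, replicate 2 light). At WNT5A H3K4me3 ran 15020 bp and 15118 bp into the gene and H3K27ac 14823 bp and 12528 bp, and at WNT10B H3K27ac lay at the inner starts and not at the outer one.

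The order of the members by H3K4me3 fold matched the presence of H3K27ac only in part. The mean folds, in descending order, were 42.9 at WNT5A, 42.1 at WNT5B, 37.7 at WNT11, 30.1 at WNT2, 29.0 at WNT16, 21.7 at WNT4, 13.2 at WNT10B, 10.1 at WNT7A and 9.48 at WNT3A. The lowest of the 3 genes with both marks was WNT2, at 38.5 and 21.8, and the highest of the 5 with H3K4me3 only was WNT16, at 37.1 and 20.8, so that the groups did not overlap within a replicate but nearly met. Over all protein-coding genes the median H3K4me3 fold was 55.5 and 26.96 in genes with both marks and 20.6 and 11.4 in genes with H3K4me3 only. Against the first pair of medians, WNT2 lay below in both replicates, WNT5A above in replicate 2 only and WNT5B above in replicate 1 only. WNT4 and WNT16 lay above the second pair in both replicates, and WNT3A, WNT7A and WNT10B lay below it in both. Neighbours in this order did not differ beyond the SD of their replicates, which includes the lower fold of replicate 2 at every member. Within each replicate WNT2, WNT16 and WNT4 kept this order below WNT5A, WNT5B and WNT11 and above the other members.

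**Figure D3:**
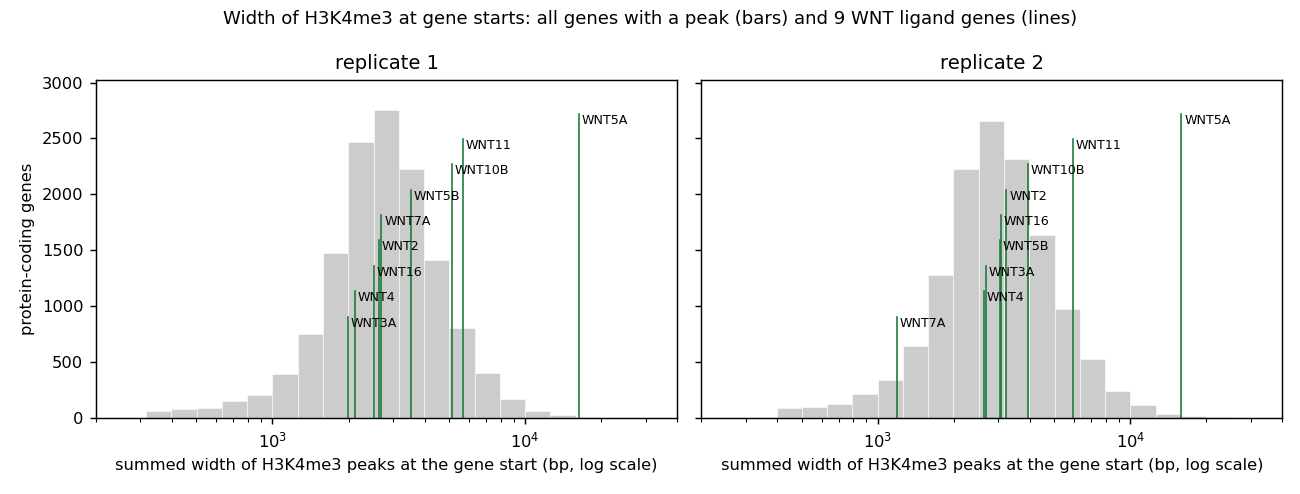
Number of protein-coding genes by the summed width of H3K4me3 peaks at the start (bp, log scale), with 1 panel per replicate and green lines for the 9 WNT ligand genes. WNT5A, at 16271 bp and 15937 bp, stood in the far right tail in both replicates, and the other 8 lay between 1196 bp and 5947 bp.

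Within the gene bodies, peaks were placed by their summit, which had to lie over 1 kb from the start. For H3K27ac the 9 genes together held 15 and 18 such peaks in replicates 1 and 2, of which WNT5B alone held 9 and 11. The bodies of WNT2, WNT3A and WNT16 held none in either replicate. Per 10 kb of record, WNT5B had 0.86 and 1.05, WNT5A 0.89 and 0.89, WNT10B 1.21 and 0.60 and WNT11 0.46 and 1.37. The mean over protein-coding genes was 0.353 and 0.391. Of the WNT5B peaks, 1 in each replicate lay at the start of FBXL14, a gene that lies within the WNT5B record. At WNT5A, the body count of replicate 1 includes the wide peak at its start, whose summit lay 4913 bp into the gene. At WNT5B, the count of replicate 2 likewise includes the peak at the start, with a summit at 1322 bp. The WNT5A count of replicate 2 includes a peak from 12.92 to 15.29 kb, which joined the start region when the replicates were merged. No H3K27ac region away from the start was called in both replicates within the WNT5A record. At WNT10B the body peaks lay within 1 kb of its inner transcript starts.

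H3K27ac away from gene starts was examined in regions called in both replicates, within the gene or within 100 kb of its ends and with no gene start within 1 kb. There were 56 such regions around the 9 genes, between 1 and 14 for each, and 15 overlapped H3K4me3 and 10 overlapped CTCF called in both replicates. Many of them lay inside neighbouring genes, and the lists do not show which gene a region acts on.

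WNT5B had the most, 14, with 7 in its own introns, 5 upstream and 2 downstream. Its record is the longest of the 9, at 104.8 kb, so the span searched was also the longest. In its flanks alone, 10 and 9 H3K27ac peaks of replicates 1 and 2 lay away from gene starts. This was above the median of 6 over protein-coding genes in each replicate, and below WNT4 (13 and 12) and WNT10B (11 and 16). The strongest intronic region of WNT5B lay 24.6 kb downstream of the start, with folds of 12.4 and 13.97, no lower than at the WNT5B start. The strongest of all lay 74.3 kb upstream, inside the gene ERC1, from 68551370 to 68555720, with folds of 23.0 and 21.6. Both folds were about double those at the start of WNT5B itself.

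WNT11 had 6 such regions, 5 of them upstream, and 5 of the 6 overlapped H3K4me3. The strongest lay 38.0 kb upstream from 10472089 to 10474257 on chromosome 9, outside any protein-coding gene, with folds of 15.98 and 16.04. Further regions lay 41.2 kb upstream, with folds of 8.54 and 11.11, and 88.0 kb upstream, with 7.06 and 10.5. These regions were above the fold of 4.06 seen in the single library at the WNT11 start. The remaining regions were close to it or below it. They had folds of 3.27 and 4.77 at 31.8 kb upstream, 3.01 and 3.47 at 45.9 kb upstream, and 2.93 and 2.70 in an intron 18.5 kb downstream.

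WNT5A had 6, with 4 upstream inside the neighbouring gene ERC2 and 2 downstream. The upstream regions at 64.7, 70.1 and 91.5 kb had folds of 8.59 and 7.06, 11.5 and 10.2, and 8.95 and 9.51. All were below the H3K27ac at the WNT5A start, which had 25.4 and 31.4.

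The ligand genes with H3K4me3 only also had H3K27ac regions in their surroundings. WNT10B had 10 regions, of which 8 were downstream, and the strongest lay 79.8 kb downstream with folds of 8.31 and 9.66. WNT4 had 6, all downstream, and the nearest, 29.7 kb from the start and just past the end of the gene, was also the strongest with 6.86 and 7.76. WNT16 had 5, and the strongest, inside CPED1 and 78.7 kb upstream, had folds of 10.9 and 10.1.

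WNT3A had 3 regions, all downstream inside the genes ARF1 and IBA57, at folds up to 6.82 and 6.45. WNT7A had 1, 24.2 kb upstream with folds of 5.34 and 5.50, and in its flanks it had 1 H3K27ac peak in each replicate, where the median of protein-coding genes was 8 and 9. A weak intronic peak 27.6 kb from the start, with a fold of 2.48, was called in replicate 2 only. WNT2 had 5, all downstream, of which the strongest lay 50.1 kb from the start, past the end of the gene, with folds of 5.91 and 6.34. These exceeded the 3.98 and 4.25 at the WNT2 start.

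**Figure D4:**
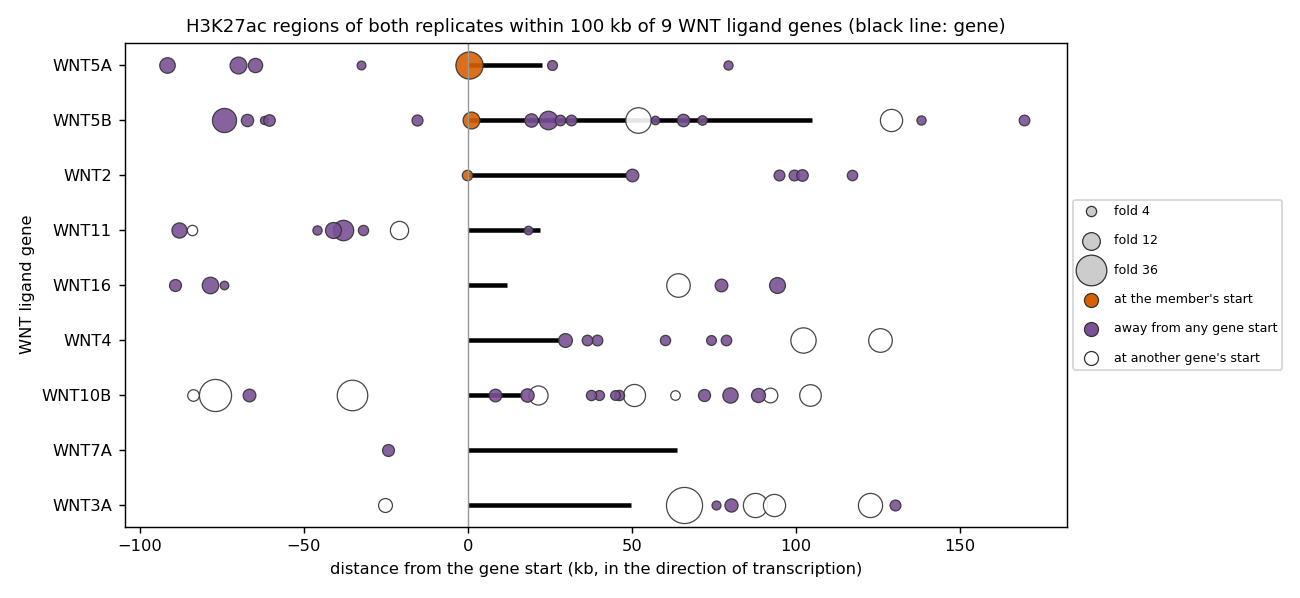
H3K27ac regions called in both replicates around each WNT ligand gene, by distance from the gene start (kb, in the direction of transcription), with circle area scaled to mean fold enrichment and a black line for the gene record. Orange circles lie at the start of the ligand gene, purple circles away from any gene start and open circles at the start of another gene. WNT5B had 14 regions away from gene starts, 7 of them in its own introns, and WNT7A had 1.

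CTCF was called in both replicates at 63 regions in or within 100 kb of the 9 genes, and WNT10B alone had 19 of them. In the flanks of WNT10B, 15 CTCF peaks were called in each replicate. Of these, 12 and 11 lay away from other gene starts, more than at 97.5% and 94.4% of protein-coding genes. WNT4 had 1 such peak in each, more than at only 5.42% and 4.80%. The 9-letter core AGNNGGCGC, a part of the CTCF motif, was searched on both strands within 100 bp of each summit, and it was found at 20 of the 63 regions, or 31.8%. Over the genome it was found at 17.3% of the 37883 CTCF peaks of replicate 2 that overlapped a peak of replicate 1. The members' regions were merged over both replicates and took the summit with the highest −log10 q-value, so these shares were not counted in the same way. Over all CTCF peaks, called in 1 replicate or both, it was found at 16.9% and 16.1% in replicates 1 and 2, and at 1.041% and 1.027% of windows of the same size 1 kb away from the summits. A match is a description of the letters and no measure of binding strength.

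For the 6 genes in which it lay closest to the start, the nearest such region outside an exon is shown, 41 bases on Sscrofa11.1, 5′ to 3′ on the strand that holds the core, with the core in capitals. Distances are from the start of the gene to the CTCF summit. At WNT2 and WNT16 the nearest lay 62.2 kb and 64.4 kb downstream, and none of the 4 CTCF regions of WNT5A held the core.
WNT3A, 2.8 kb upstream, chr2:51151143-51151183, plus strand: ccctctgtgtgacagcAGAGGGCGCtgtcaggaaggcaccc
WNT4, 11.8 kb downstream, chr6:80126372-80126412, plus strand: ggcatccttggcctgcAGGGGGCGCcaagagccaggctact
WNT5B, 12.8 kb upstream, chr5:68614348-68614388, minus strand: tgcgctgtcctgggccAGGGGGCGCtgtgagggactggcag
WNT7A, 4.8 kb upstream, chr13:70533955-70533995, plus strand: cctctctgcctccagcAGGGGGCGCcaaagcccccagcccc
WNT10B, 3.4 kb downstream, chr5:15010460-15010500, minus strand: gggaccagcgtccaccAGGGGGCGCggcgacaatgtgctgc
WNT11, 3.2 kb downstream, chr9:10431898-10431938, plus strand: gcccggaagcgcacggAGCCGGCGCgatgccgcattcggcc
The WNT11 site had the strongest CTCF of these, with folds of 50.3 and 47.9, under the H3K4me3 peak of the start. That of WNT4, in an intron, had 34.1 and 32.5, and that of WNT3A 23.4 and 19.6. WNT7A had 17.7 and 20.1 at its site, WNT10B 14.6 and 16.3 and WNT5B 10.1 and 10.9. The WNT10B site also lay within 1 kb of the start of WNT1. At the start of WNT7A itself, the stronger CTCF peak with folds of 32.7 and 31.6 held no such core within 100 bp of its summit.

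The positions of CTCF relative to the starts also differed between the genes with both marks. At WNT5A a CTCF region lay 3.2 kb inside the gene, under the wide H3K4me3 and H3K27ac peaks, with folds of 21.7 and 25.9, and CTCF at the start itself was called in replicate 2 only, with a fold of 3.68. At WNT5B the nearest lay 8.3 kb upstream with 24.9 and 31.4, and at WNT2 52.7 kb upstream with 24.2 and 34.3. WNT4 and WNT11 had CTCF at the start in replicate 2 only, with folds of 6.33 and 5.46. The inner transcript starts of WNT11, 758 and 1659 bp from the outer one, had CTCF in both replicates, at 18.2 and 27.2.

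Of the 18 nearest neighbouring genes, 1 taken for each side of every ligand gene, 16 carried both marks, against 58.9% of protein-coding genes. This held for 5 of 6 neighbours of the ligands with both marks and for 11 of 12 neighbours of the others. The marks were scored at the neighbours' own starts, which lay between 3.3 kb (WNT1) and 1144.9 kb (CACNA2D3) from the ligand start. Several of these starts lay well beyond 100 kb, such as ERC2 at 1000.3 kb from WNT5A and UVRAG at 346.4 kb from WNT11. FBXL14, taken for WNT5B, and WNT1, taken for WNT10B, overlap the record of the ligand gene and do not lie beside it. ERC1, upstream of WNT5B, was not among the 18 genes. WNT3A and WNT9A stand head to head with their starts 25.6 kb apart, and WNT9A had H3K4me3 folds of 49.9 and 18.1 and H3K27ac folds of 6.23 and 8.61, against 12.3 and 6.66 and no H3K27ac at WNT3A. Between these starts lay CTCF regions 2.8, 6.0 and 21.5 kb upstream of WNT3A, and the last had folds of 40.7 and 31.4. FAM3C, which ends 9.7 kb from WNT16, had H3K4me3 folds of 67.9 and 25.9 and H3K27ac folds of 18.99 and 23.5. ARF3, 4.4 kb from the end of WNT10B, had H3K27ac folds of 9.78 and 18.3. The exceptions among the nearest neighbours were ASZ1, a germ cell gene upstream of WNT2 with neither mark, and WNT1, with H3K4me3 only.

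The other WNT ligand genes were looked at by the same rule. Of these 10, 1 carried both marks (WNT9A), 6 H3K4me3 only (WNT1, WNT3, WNT6, WNT7B, WNT9B and WNT10A), 2 neither (WNT8A and WNT8B) and 1 differed between replicates (WNT2B). WNT7B had the highest H3K4me3 of the 6, at 42.3 and 18.6, above WNT16 in replicate 1 and below it in replicate 2. H3K27ac lay 1175 bp and 1114 bp from the WNT7B start, just outside the window. For WNT2B a peak lay 1123 bp from the start in replicate 1 and 904 bp in replicate 2, so that its class also rests on the edge of the window.

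Among 58 genes that secrete, receive, transmit or restrain WNT signals, 40 carried both marks, 8 H3K4me3 only, 1 H3K27ac only, 7 neither and 2 differed between replicates. Of 16 receptors and co-receptors, 12 carried both marks, and the highest mean H3K4me3 folds were 56.5 at ROR2, a receptor for WNT5A, 55.8 at FZD3 and 55.5 at FZD4. ROR2 had H3K27ac folds of 19.1 and 24.2. FZD10 had H3K4me3 only, and FZD1 and ROR1 had neither within 1 kb. For FZD1, H3K4me3 lay 1020 bp and 1177 bp from the annotated start, so that it missed the window narrowly, while at ROR1 the nearest H3K4me3 was 28800 bp and 28830 bp away.

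For secretion, PORCN, the acyltransferase that attaches the lipid, carried both marks. WLS, the carrier of WNT proteins to the cell surface, had neither at its annotated start, and the nearest H3K27ac was 7353 bp and 7837 bp away. Of 13 secreted inhibitors, 7 carried both marks, 3 H3K4me3 only (DKK2, SOSTDC1 and SFRP5) and 3 neither (NOTUM, SOST and DKK4). The nearest H3K4me3 lay 1775 bp and 1786 bp from the NOTUM start and 1019 bp and 2817 bp from the SOST start. At DKK4 it was 5568 bp and 5215 bp away. The highest mean H3K4me3 folds were 45.1 at DKK1, 41.1 at DKK2 and 40.9 at SFRP2. H3K27ac at DKK1 was weak, at 2.62 and 5.02, as it was at WNT2.

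Of 9 R-spondins and genes of receptor turnover, 5 carried both marks and 4 H3K4me3 only (RSPO2, RSPO4, LGR5 and LGR6). LGR4, ZNRF3 and RSPO3 had the highest mean H3K4me3 folds, 47.7, 40.9 and 38.1. Of 12 cytoplasmic components, 10 carried both marks, with the highest mean H3K4me3 at DVL1 (54.7), GSK3A (49.6) and CTNNB1, which encodes β-catenin (49.3). Of 6 nuclear factors, 5 carried both, led by PYGO2 (60.6), LEF1 (41.5) and TCF7 (37.5), and TCF7L1 had neither within 1 kb. At TCF7L1 the nearest H3K27ac lay 1252 bp and 1173 bp from the start, just outside the window, and the nearest H3K4me3 1454 bp and 4888 bp. The share with both marks was thus 40 of 58 in the rest of the pathway against 3 of the 9 ligands, beside 58.9% of protein-coding genes. The 3 of 9 takes WNT10B at its outer start, and by any transcript start 4 of the 9 carried both marks. No test was made of these counts, because the lists were chosen with results of these data known.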

How the data were processed

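Each of the 6 peak lists was analysed on its own, as deposited. Per the labels and methods, the authors mapped reads with bowtie2 to Sscrofa11.1, dropped duplicates and ran MACS2 for narrow peaks on each library; the program versions are not given in the sources used here. For each peak the deposited lists hold a score (not used), a fold enrichment as a ratio over control, and p- and q-values as −log10. A q-value of 0.01 is stated, whereas the highest in the lists was 0.0432 to 0.0499. The lists hold no read counts, so that the depth behind a peak is unknown and no interval was computed. Gene starts came from RefSeq release 106. A peak overlapping the window by 1 bp counted, and where several did, the highest fold and the summed width were taken. All 9 members were named. The other lists were named by class and by the 3 highest mean H3K4me3 folds. The members, lists and alternatives were chosen with earlier results of these data known. Input libraries and proteins were not analysed here, and the bases at 1 start are not reported here. Python 3.11.15, pandas 2.3.3 and pysam 0.24.0 were used, and the calls were tested on simulated data, in which 2000 of 2000 planted calls were recovered.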

Additional observations from a re-analysis of the deposited data

How the results depend on the processing

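Of 120 values recomputed with other settings, 111 stayed within the limits set, 1.5 times for a count and 1 SD of the replicates for a fold, 9 did not, and none reversed. Leaving out 1 of 2 replicates cannot move a mean fold by 1 SD, so every recomputed fold was among the 111 by construction. Without replicate 1 the H3K4me3 fold fell from 42.1 to 24.3 at WNT5B, from 21.7 to 13.6 at WNT4 and from 13.2 to 8.74 at WNT10B. With −log10 q-values of at least 2 or 5, or a window of 5 kb, each of the 9 ligand genes kept its class. Where the summit had to lie within 1 kb, both marks were left at 1 gene (WNT2) and the replicates differed at 4 (WNT5A, WNT5B, WNT10B and WNT11), the first 3 of which had a summit further in at the start peak of 1 library or more. Any transcript start moved WNT10B alone to both marks. CTCF was at the start of 5 genes within 5 kb, of 5 with a call in either replicate, and of 2 to 5 with 1 replicate left out, 5 without replicate 1. H3K27ac peaks in gene bodies, 16.5 per library on average, fell to 9.5 at −log10 q of at least 5, and H3K4me3 peaks there, 9.5 on average, ranged from 6 to 13 with 1 replicate left out, 6 without replicate 2. Within 50 kb in place of 100 kb there were 44.5 in place of 85.5 H3K27ac peaks and 25.5 in place of 46 H3K4me3 peaks. Without replicate 1 WNT11 carried both marks, and without replicate 2 H3K4me3 only. No paired analysis was possible because the results come from no test. A weak signal below the threshold of the peak caller cannot be told from none, and at WNT10B and WNT1 the peak lists cannot separate overlapping genes.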
